A study of Mus musculus with 4 samples.

Results

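The microRNAs (miRNAs) described here come from imprinted domains other than the large Dlk1-Dio3 cluster: miR-296 and miR-298 of the Gnas domain, miR-335 of Mest, miR-675 of H19 and miR-483 of Igf2. They were chosen by name, as both mature arms (5p and 3p) of these 5 precursors, which gives 10 of the 1326 miRNAs listed. Small RNA had been sequenced from mouse retina at embryonic day 18.5, in 2 libraries of Ptf1a+/- embryos (1 functional copy of the gene) and 2 of Ptf1a-/- embryos (no functional copy). Ptf1a encodes a transcription factor that retinal progenitors require to make amacrine and horizontal cells. All 4 libraries carry at least 1 mutant copy, and no wild-type retina was analysed here. The labels name neither the allele nor the strain, and leave unsaid whether replicates are different embryos. The p-values therefore set the genotype difference only against the spread between these libraries within a genotype, and that spread may be technical. Ptf1a mRNA lies outside the sequenced size range of 18 to 30 nt, and the genotypes could not be checked against it.

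An imprinted gene is transcribed mainly from the copy inherited from 1 parent. In the Gnas domain, which encodes a G protein subunit, miR-296 and miR-298 have been described as expressed from the paternal copy. Mest (a hydrolase-like protein) and Igf2 (a growth factor) are paternally expressed and carry miR-335 and miR-483 in introns, while H19 is a maternally expressed noncoding RNA from which miR-675 is cut. Igf2 and H19 are active mostly in mesodermal and endodermal tissues of the embryo. The libraries do not tell the parental copies apart, so the data bear on the amount of each miRNA and not on its imprint.

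A miRNA pairs with its targets mainly through its seed, bases 2 to 8 from its 5′ end. The sequences of the 8 arms measured well enough to be tested are shown because seed, base composition and end position differ among them; capitals mark the seed (RefSeq, GRCm38.p6, 10 of 10 arms matched).
mmu-miR-296-5p: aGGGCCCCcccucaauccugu
mmu-miR-296-3p: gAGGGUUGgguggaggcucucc
mmu-miR-298-5p: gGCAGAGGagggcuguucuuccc
mmu-miR-298-3p: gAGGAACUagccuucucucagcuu
mmu-miR-335-5p: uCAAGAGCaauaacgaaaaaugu
mmu-miR-335-3p: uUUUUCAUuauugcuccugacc
mmu-miR-483-5p: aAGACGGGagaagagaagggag
mmu-miR-483-3p: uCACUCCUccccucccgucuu

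No seed was shared between the 10 arms or with another mouse miRNA of the RefSeq table (0 other miRNAs for each). G and C made up 30.4 and 36.4% of the miR-335 arms but 65.2% of miR-298-5p, 66.7% of miR-296-5p and 68.2% of miR-296-3p. All counts of the 10 arms were whole numbers in every library, so their values showed no sign of reads divided between entries.

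Mir296 and Mir298 lie on the minus strand of chromosome 2 (174267047 to 174267125 and 174267504 to 174267585, GRCm38), 378 bases apart. GENCODE M21 places them inside no other gene. The annotated end of Nespas, the antisense transcript of the Gnas domain on the same strand, is 13651 bases from Mir298. Mir335 lies in an intron of Mest (chromosome 6, 30741299 to 30741396, plus strand), Mir675 in an exon of H19 (chromosome 7, 142577064 to 142577147, minus strand) and Mir483 in an intron of Igf2 (chromosome 7, 142654924 to 142654996, minus strand). Mir483 also lies inside the annotated gene Gm49394, outside its exons. Mir675 and Mir483 are 77776 bases apart. The hairpin of Mir296 is shown with its arms in capitals because its 3p arm is the 1 that fell.
Mir296: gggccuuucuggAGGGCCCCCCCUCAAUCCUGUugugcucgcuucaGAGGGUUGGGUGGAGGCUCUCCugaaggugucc

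For 6 of the 8 arms the most frequent sequence deposited for each library began at the RefSeq 5′ end. In miR-298-3p and miR-483-3p it began 1 base further in, in all 4 libraries, and so carried another seed. The read forms of these 2 arms are shown for comparison with the RefSeq forms above, again with bases 2 to 8 in capitals.
miR-298-3p read: aGGAACTAgccttctctcagct
miR-483-3p read: cACTCCTCccctcccgtcttgt

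The form of miR-298-3p is that of Ptf1a-/- replicate 2, and the other libraries carried a longer 3′ end on the same start. Among tested miRNAs that could be placed on 1 RefSeq hairpin in every library, 45 (10.9%) had a shifted start that was the same in all 4. The start was the same in both genotypes for all 8 arms. The table gives no counts for these sequences, so how much of each arm they made up was not measured.

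The libraries held 3647145 to 4385834 listed counts each. All 5 retinal marker miRNAs (miR-183-5p, miR-182-5p, miR-96-5p, miR-124-3p and miR-9-5p) were abundant, with at least 2704 counts in any library. The Ptf1a+/- libraries were far closer to each other than the Ptf1a-/- libraries were. Over the 8 arms the former differed by no more than read sampling (chi-square of 7.28 with 7 degrees of freedom, p = 0.400), and the latter by much more (137 with 7 degrees of freedom, p = 1.95e-26). The Ptf1a+/- libraries also differed beyond sampling when every miRNA with at least 20 counts in the pair was used (chi-square per degree of freedom 1.85), and both were kept as replicates. Ptf1a-/- replicate 2 stood apart, with a TMM factor of 0.829 against 1.06 to 1.07 in the others. TMM is a scaling that assumes most miRNAs do not differ, and levels below are TMM-scaled CPM, counts set to a common library total. Before that scaling, the 10 arms together took 0.534 and 0.537% of the listed counts in Ptf1a+/- and 0.447 and 0.342% in Ptf1a-/-. These shares are not corrected by the TMM factors, and miR-296-3p and miR-298-5p weigh most in them.

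By mean level over the libraries the arms ran from miR-296-3p (2062 CPM, rank 50 of all listed miRNAs) through miR-298-5p (1848), miR-335-3p (283), miR-335-5p (226), miR-296-5p (140) and miR-483-5p (18.4) to miR-298-3p (8.68) and miR-483-3p (8.20). miR-675-3p and miR-675-5p were at 0.418 and 0.395 CPM, on at most 5 counts in a library. These levels count whole molecules of nearly equal length, but ligation and PCR favour some sequences, so the order is less firm than a comparison of 1 arm between libraries. The top of the order depended on the library: miR-296-3p was above miR-298-5p in both Ptf1a+/- libraries and in Ptf1a-/- replicate 2, and below it in Ptf1a-/- replicate 1. The least abundant tested arms also changed places, miR-483-3p being above miR-298-3p in Ptf1a+/- and below it in Ptf1a-/-.

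**Figure D1:**
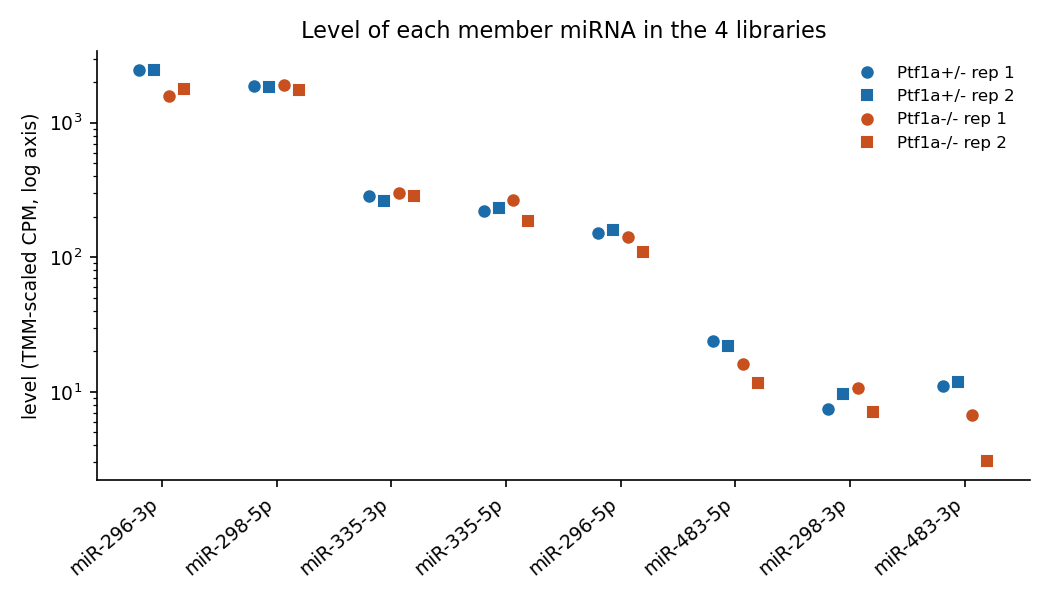
TMM-scaled CPM (log axis) of the 8 tested arms, ordered by mean level, in the 2 Ptf1a+/- libraries (blue) and the 2 Ptf1a-/- libraries (orange). Each point is 1 library; miR-296-3p, miR-296-5p and both miR-483 arms are lower in both Ptf1a-/- libraries than in either Ptf1a+/- library.

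The comparison asked whether these imprinted miRNAs differ when Ptf1a function is lost. Of the 8 arms that reached 10 counts in 2 or more libraries, miR-296-3p fell in Ptf1a-/- and 7 did not pass the test (edgeR quasi-likelihood test, adjusted p under 0.05). Among all 584 tested miRNAs 9.76% passed in either direction, 3.6% being lower and 6.16% higher, so 1 of 8 is near the background. Log2 fold changes of the arms ran from -1.19 up to 0.09, and their median was -0.17, against -0.00306 over all 584. Both Ptf1a-/- libraries lay below both Ptf1a+/- libraries for 4 of the 8 arms and above both for 1. The same was so for 31.5 and 26.7% of all tested miRNAs, so neither count is a result about these arms.

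**Figure D2:**
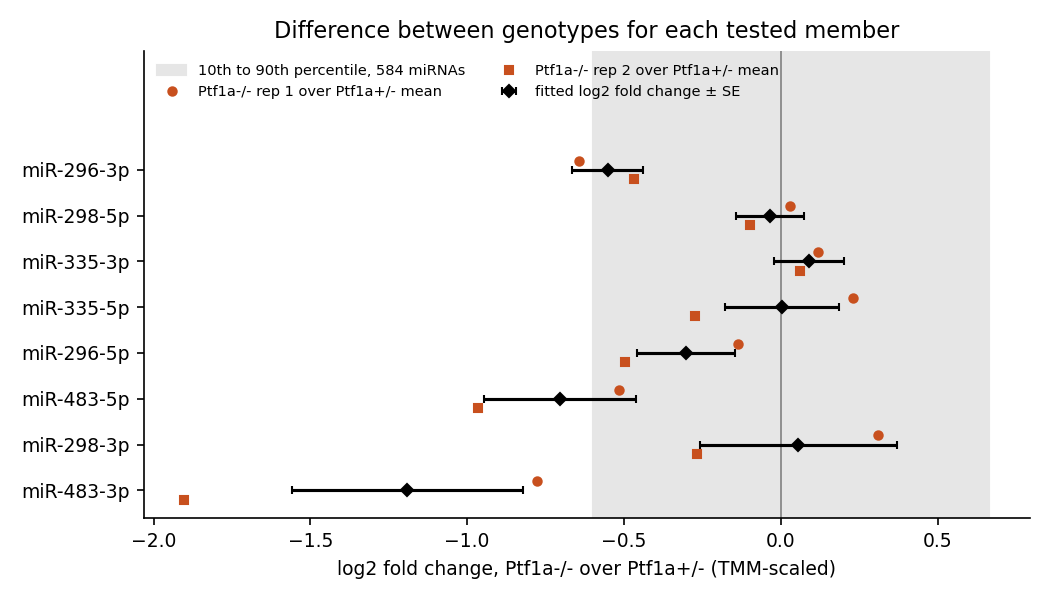
Fitted log2 fold change of Ptf1a-/- over Ptf1a+/- with its SE (black) for the 8 tested arms, and each Ptf1a-/- library over the Ptf1a+/- mean (orange). The grey band spans the 10th to the 90th percentile of all 584 miRNAs (-0.60 to 0.67); both miR-483 arms lie below it, and miR-296-3p lies inside it.

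miR-296-3p was the most abundant arm and the 1 that fell. miR-296 has been studied for its part in blood vessel growth. Of mmu-miR-296-3p, Ptf1a+/- replicates 1 and 2 held 2454 and 2449.5 CPM, while Ptf1a-/- replicates 1 and 2 held 1571 and 1774 CPM. The genotypes did not overlap, and the lower of the Ptf1a-/- values was that of replicate 1. The means were 2452 ± 3.49 and 1673 ± 144 CPM (SD, n = 2 each). The fitted log2 fold change was -0.55 ± 0.11 (SE), which is a fall of 31.8% (adjusted p = 0.0387). On summed counts of 21016 and 11847 the ratio was 0.679 with a 95% counting interval of 0.663 to 0.694 (exact, counting error only). Its call rests on the Ptf1a+/- spread: the adjusted p was 0.594 without Ptf1a+/- replicate 1, 0.563 without replicate 2 and 0.539 with the pair summed into 1 library. It was 0.0941 with no filter on low counts, and 0.0238 to 0.594 over the 9 alternatives that kept both Ptf1a-/- libraries; the log2 fold change lay between -0.90 and -0.48 in all 11.

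The other arm of the precursor, mmu-miR-296-5p, stood at 151 and 158 CPM in Ptf1a+/- and 141 and 109.6 CPM in Ptf1a-/-. Both Ptf1a-/- values were lower, replicate 1 only slightly. Its log2 fold change was -0.30 ± 0.16 (adjusted p = 0.300), so it did not pass. That log2 fold change was -0.51 without Ptf1a-/- replicate 1 and -0.14 without replicate 2. miR-296-5p supplied 5.79 and 6.08% of the counts of both arms in Ptf1a+/-, and 8.22 and 5.82% in Ptf1a-/-. Only Ptf1a-/- replicate 1 stood out, with a 95% interval of 7.57 to 8.91% (exact, Clopper-Pearson). With the arms summed miR-296 stood at 2617 ± 2.41 and 1791 ± 125 CPM (log2 fold change -0.55 ± 0.11, adjusted p = 0.0355; 9.66% of 580 rows passed in that fit). That call too was lost without Ptf1a+/- replicate 1 or 2 (adjusted p = 0.592 and 0.565), with the pair summed (0.554) and with no filter on low counts (0.0922).

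miR-298, the close neighbour of miR-296, gave almost all of its counts from the 5p arm (99.4 to 99.6% in the 4 libraries). mmu-miR-298-5p was at 1879 and 1859 CPM in Ptf1a+/- and at 1908 and 1744 CPM in Ptf1a-/-. The genotypes overlapped, with 1 Ptf1a-/- library above both Ptf1a+/- libraries and 1 below them. The means were 1869 ± 14.7 and 1826 ± 115 CPM, with a log2 fold change of -0.03 ± 0.11 (adjusted p = 0.881). mmu-miR-298-3p had 29, 45, 41 and 23 counts in Ptf1a+/- replicates 1 and 2 and Ptf1a-/- replicates 1 and 2. At 7.49 and 9.57 against 10.6 and 7.08 CPM its genotypes overlapped as well, and its log2 fold change of 0.06 ± 0.32 (adjusted p = 0.946) was -0.12 with library size as the only scaling and -0.27 on the deposited CPM.

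The ratio of the leading arms of these neighbours needs no scaling between libraries; it was chosen after the values were seen. For each count of miR-298-5p, Ptf1a+/- libraries held 1.31 and 1.32 counts of miR-296-3p, and Ptf1a-/- libraries 0.824 and 1.02. The ratio was lower in both Ptf1a-/- libraries, and its 95% counting intervals did not reach those of Ptf1a+/- (0.796 to 0.852 and 0.980 to 1.06, against 1.27 to 1.35 and 1.28 to 1.36). The mean was 1.31 ± 0.00842 in Ptf1a+/- and 0.920 ± 0.137 in Ptf1a-/- (SD, n = 2 each). An exact permutation test (two-sided) gave p = 0.33, the smallest that 2 libraries against 2 allow, and 0.467 adjusted over 7 ratios computed between arms. Of those 7, 5 did not overlap between genotypes, among them miR-298-5p to miR-335-3p and miR-483-5p to miR-335-5p. Such separation was therefore not particular to the ratio of miR-296-3p to miR-298-5p. The 7 share arms, and ratios among other miRNAs were not computed, so their number is not a result about these arms. The miR-296-3p to miR-298-5p ratio differed by more than the spread between replicates, in a design that cannot reach a p of 0.05.

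**Figure D3:**
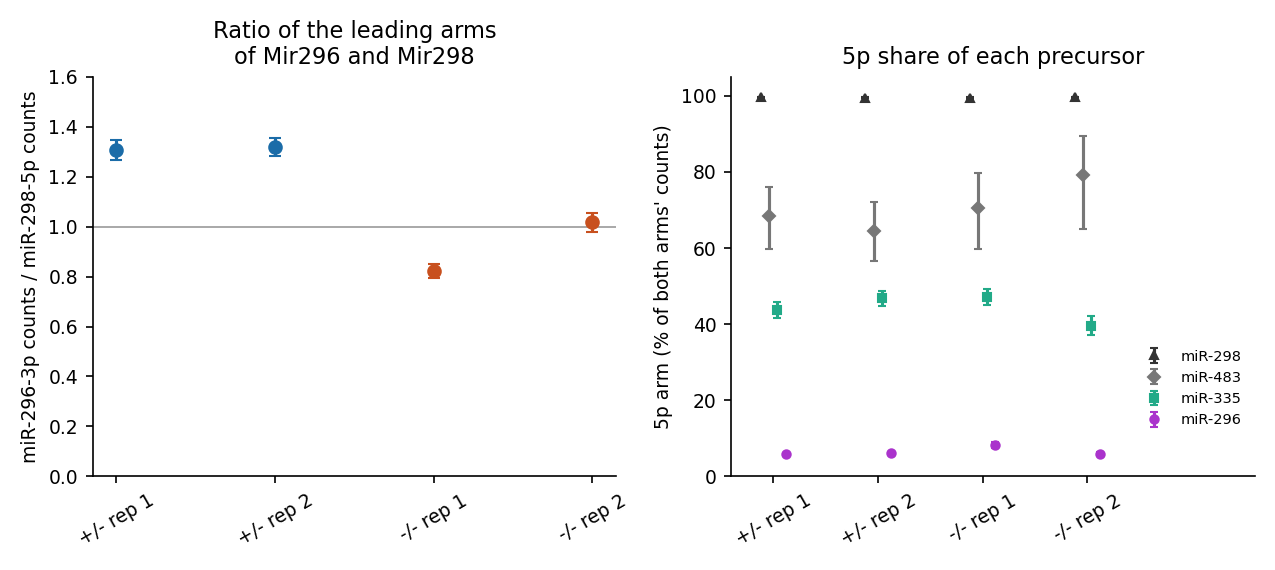
Left, counts of miR-296-3p per count of miR-298-5p in each library with 95% counting intervals; right, the 5p arm as a percentage of both arms' counts for 4 precursors with 95% intervals. The left ratio is 1.31 and 1.32 in Ptf1a+/- and 0.824 and 1.02 in Ptf1a-/-, while the right-hand shares keep the same order of precursors in every library.

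miR-335, carried in an intron of Mest and known as a suppressor of metastasis in breast cancer, had arms more alike in level than the other 3 precursors with tested arms. mmu-miR-335-3p stood at 285 and 263 CPM in Ptf1a+/- and 298 and 286 CPM in Ptf1a-/-. Both Ptf1a-/- values were slightly higher, with a log2 fold change of 0.09 ± 0.11 (adjusted p = 0.680) that turned to -0.083 with library size as the only scaling and -0.25 on the deposited CPM. mmu-miR-335-5p stood at 221 and 231 CPM in Ptf1a+/- and 266 and 187 CPM in Ptf1a-/-. Here the Ptf1a-/- libraries lay on either side of the Ptf1a+/- pair, and the means differed by less than the spread (226 ± 7.14 and 227 ± 55.6 CPM; log2 fold change 0.00335 ± 0.18, adjusted p = 0.997; -0.15 and -0.36 with the same 2 scalings). Leaving out Ptf1a-/- replicate 1 or 2 gave -0.29 or 0.23 for miR-335-5p, which are opposite signs. miR-335-3p was at 0.13 without replicate 2, and miR-298-5p at -0.11 without replicate 1. The 5p arm made up 43.7 and 46.8% of miR-335 counts in Ptf1a+/- and 47.2 and 39.6% in Ptf1a-/-. The lowest share was that of Ptf1a-/- replicate 2, whose interval of 37.1 to 42.1% overlapped that of Ptf1a+/- replicate 1 (41.5 to 45.9%) but not those of Ptf1a+/- replicate 2 (44.7 to 48.8%) and Ptf1a-/- replicate 1 (45.1 to 49.3%). With the arms summed, miR-335 was at 503 ± 8.22 and 516 ± 62.7 CPM (log2 fold change 0.04 ± 0.12, adjusted p = 0.878).

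miR-483, carried in an intron of Igf2 and studied in Wilms tumour, had the largest log2 fold changes of the 8 arms, on few counts, and neither arm passed. mmu-miR-483-5p had 93 and 102 counts in Ptf1a+/- and 62 and 38 in Ptf1a-/-, or 24.0 and 21.7 against 16.0 and 11.7 CPM. Both Ptf1a-/- libraries were lower, replicate 2 the most, with a log2 fold change of -0.70 ± 0.24 (adjusted p = 0.136). mmu-miR-483-3p had 43 and 56 counts against 26 and 10, or 11.1 and 11.9 against 6.71 and 3.08 CPM. It too was lower in both Ptf1a-/- libraries, again with replicate 2 the lowest (log2 fold change -1.19 ± 0.37, adjusted p = 0.108). The size leaned on that library: miR-483-3p was at -1.91 without Ptf1a-/- replicate 1 and -0.78 without replicate 2, and miR-483-5p at -0.97 and -0.50. Such fits hold a lone Ptf1a-/- library, assumed to vary like the Ptf1a+/- pair, so only their log2 fold changes are given here.

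On summed counts the ratio of Ptf1a-/- to Ptf1a+/- was 0.617 for miR-483-5p and 0.438 for miR-483-3p. Their counting intervals (0.480 to 0.790 and 0.290 to 0.647) lay below 1. Such intervals cover counting error only and leave out the spread between the Ptf1a-/- libraries. Those of miR-296-5p (0.749 to 0.889) and miR-335-3p (1.01 to 1.14) also excluded 1, and neither arm passed the test. With the arms summed, miR-483 stood at 34.5 ± 1.07 and 18.7 ± 5.55 CPM (log2 fold change -0.87 ± 0.24), and the adjusted p of 0.0879 missed the threshold. The log2 fold change of the sum was -1.22 without Ptf1a-/- replicate 1 and -0.59 without replicate 2. The 5p arm supplied 68.4 and 64.6% of miR-483 counts in Ptf1a+/- and 70.5 and 79.2% in Ptf1a-/-. All these intervals overlapped (56.6 to 72.0% for the lowest and 65.0 to 89.5% for the highest).

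Igf2 is expressed mainly in mesenchyme and vessels of the embryo, and markers of those cells were measured in the same libraries. Of 7 marker miRNAs 5 were tested, and miR-199a-5p fell (-1.05 ± 0.22 on the log2 scale, adjusted p = 0.0430). The other 4 missed the threshold, at -1.03 for miR-143-3p, -0.35 for miR-126a-3p, 0.31 for miR-126a-5p and 0.034 for miR-199a-3p. miR-199a-3p had the same counts as miR-199b-3p in every library, so its row cannot be assigned to 1 precursor. The summed level of the 7 was 651 and 666.5 CPM in Ptf1a+/- and 394 and 630 CPM in Ptf1a-/-. Most of that sum was miR-126a-3p alone, at 546 and 564 CPM in Ptf1a+/- and 324 and 545 CPM in Ptf1a-/-. Of the defining markers miR-145a-5p had 0, 1, 0 and 0 counts and miR-214-3p 2, 5, 0 and 4. Of the other marker lists, 1 of 3 tested miRNAs of lens and surface epithelium (miR-200b-3p, 25 and 31 against 1 and 3 counts) fell, while the more abundant miR-184-3p and miR-203-3p stood at -0.44 and 0.30 on the log2 scale and did not pass. Among 3 tested markers of pigment epithelium miR-204-3p passed. The more abundant miR-204-5p, of the same precursor, stood at -0.09 and miR-211-5p at -0.35, and neither passed. Of the other lists 0 of 3 striated muscle, 0 of 1 tested blood and 0 of 5 retinal miRNAs passed. Among all tested miRNAs 9.76% passed. The summed lens and surface epithelium level was 307 and 294 CPM in Ptf1a+/- and 229 and 302 CPM in Ptf1a-/-. The part of such cells in the miR-483 and miR-296-3p values was not tested, and in RNA of whole retina fewer cells of a type and less RNA per cell cannot be told apart.

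miR-675, which is cut from H19 and has been described as restraining growth of the placenta, was barely present. The 5p arm had 1 and 5 counts in Ptf1a+/- and 1 and 0 in Ptf1a-/-, and the 3p arm 0 and 3 against 4 and 0. A count of 0 allows up to 0.775 CPM in Ptf1a+/- replicate 1 and 0.924 CPM in Ptf1a-/- replicate 2 (3 counts, counting error only). Neither arm reached 10 counts in any library, so no fold change is given and a difference was not detectable at this depth. The miRNAs of the neighbouring genes H19 and Igf2 thus differed widely in level, with 9 summed counts of miR-675 and 294 of miR-483 in the Ptf1a+/- libraries.

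The scaling set how far all arms moved together. With library size as the only scaling, the median of all 584 miRNAs shifted to -0.18, and on the deposited CPM to -0.33; all 8 arms were then below 0. Of all miRNAs 2.74 and 4.79% passed. Relative to that median they moved little: miR-296-3p stayed the 1 arm that passed under both (adjusted p = 0.0390 and 0.0252), and the median of the 8 arms differed from that of all miRNAs by -0.17 with TMM, -0.16 with library size and -0.18 on the deposited CPM. The share of all miRNAs that passed was 8.73% with RLE scaling, 10.1% with DESeq2, 1.67% with no filter, 2.05% with a replicate block, 0 and 0.177% without Ptf1a+/- replicate 1 and 2, 45.6 and 47.5% without Ptf1a-/- replicate 1 and 2, and 0.175% with the Ptf1a+/- pair summed.

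**Figure D4:**
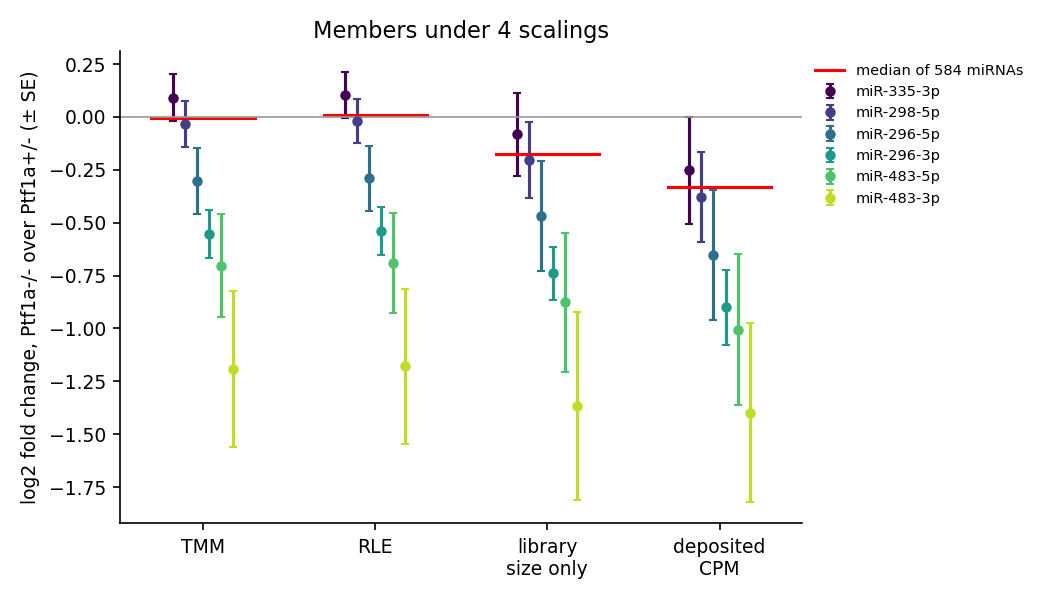
Log2 fold change with its SE of 6 arms under 4 scalings, with the median of all 584 miRNAs in red. The arms keep their order while the median moves from -0.00306 with TMM to -0.18 with library size only and -0.33 on the deposited CPM.

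Other imprinted miRNAs gave a different count in the same fit. The miRNAs of the Dlk1-Dio3 cluster are expressed from the maternal copy. Of 72 tested, 30 were higher and 1 lower in Ptf1a-/- (43.1%), with a median log2 fold change of 0.73. Those 31 calls became 5 with library size only, 12 with no filter, 1 on the deposited CPM, 0 without Ptf1a+/- replicate 1 or 2 or with that pair summed, and 48 and 57 without Ptf1a-/- replicate 1 and 2. miR-323-3p had the smallest p of those that rose (1.11, adjusted p = 0.00937), and miR-673-5p was the 1 that fell (-2.87, adjusted p = 0.00937). Of 35 tested rows of the miR-297, miR-466, miR-467 and miR-669 families, which fill an intron of the imprinted gene Sfmbt2, 0 passed with edgeR, DESeq2 or limma, and 0 had an unadjusted p under 0.05 with edgeR, against 25.3% of all tested miRNAs. Their median was -0.07, and 24 of the 35 held counts that were not whole, so reads of near-identical rows may have been divided among them. The 8 arms outside these clusters, at a median of -0.17 and with 0 higher, were not tested as a group against either list.

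**Figure D5:**
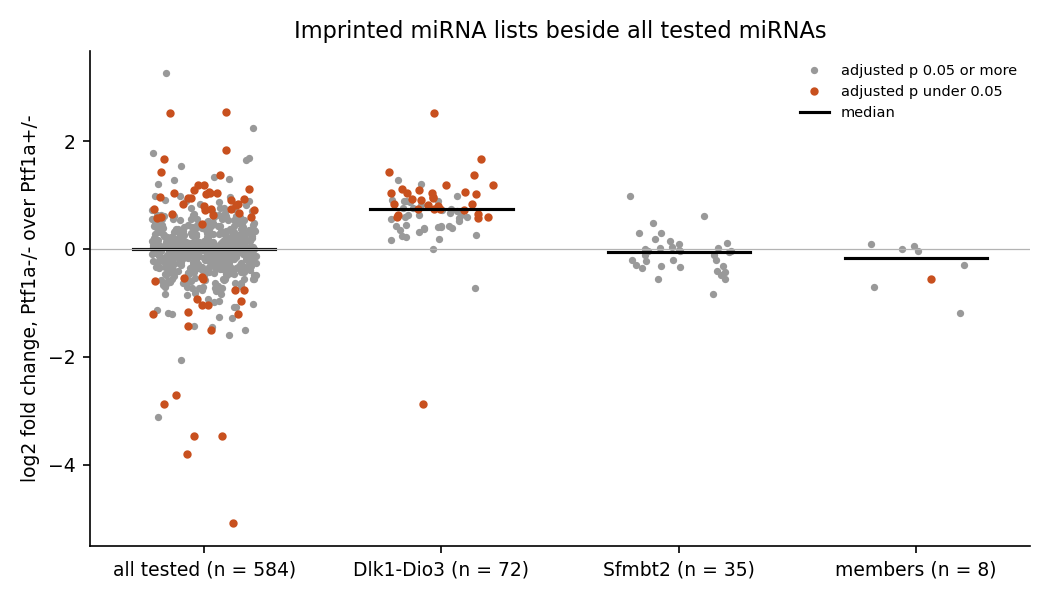
Log2 fold change of every tested miRNA, and of those in the Dlk1-Dio3 list, the Sfmbt2 families and the arms described here (members), with medians as black lines and miRNAs at an adjusted p under 0.05 in orange. The Dlk1-Dio3 list has a median of 0.73, the Sfmbt2 families of -0.07 and the 8 arms of -0.17.

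The miRNAs with a pattern over the 4 libraries most like that of miR-296-3p came from other loci. The measure was the Euclidean distance between log2 CPM centred over the 4 libraries, among 410 miRNAs with a mean of 10 CPM or more. The nearest was miR-204-3p (distance 0.0220), at 397 and 391 CPM in Ptf1a+/- and 252 and 289 CPM in Ptf1a-/-. The next were miR-346-5p (0.0943) and miR-423-3p (0.112), with log2 fold changes of -0.64 ± 0.15 and -0.51 ± 0.14. miR-204-3p fell at the threshold (adjusted p = 0.0436) and the other two did not pass (0.0555 and 0.0843). miR-204 was listed here as a marker of pigment epithelium. The 3 miRNAs of that list summed to 3690.0 and 3729 CPM in Ptf1a+/- and 3204 and 3566 CPM in Ptf1a-/-. Most of that sum was miR-204-5p, at 3283 and 3325 CPM in Ptf1a+/- and 2944 and 3266 CPM in Ptf1a-/-. The part of any 1 tissue in the miR-296-3p values was not tested.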

How the data were processed

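Mouse retina small RNA of 18 to 30 nt was measured in 4 libraries, grouped by the genotype in their titles. Per the submitters' processing notes, reads were demultiplexed by bcl2fastq 2.20.0.422; the aligner, counter and build were not given in the sources used here. A deposited raw table holds estimated counts (5.73 to 7.84% of values per library not whole), which were rounded; the planned test had assumed whole numbers. The deposited CPM table divides these by a total that exceeds the listed counts by 16.3 to 27.9% of itself. The third deposited table is text, written against miRBase22 per the file headers. No molecular identifiers are described, so intervals cover counting error only.

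The test was edgeR 4.0.16 (R 4.3.3) quasi-likelihood, with TMM scaling and genotype only. It covered the 584 miRNAs reaching 10 counts in 2 or more libraries, adjusted by Benjamini-Hochberg and called under 0.05. A trial on simulated data gave both genotypes the same spread, unlike these libraries, so it does not cover their unequal spread. SE derive from the fit. Alternatives were other scalings, DESeq2 1.42.0, no filter, a replicate block, each library left out, the Ptf1a+/- pair summed, and limma 3.58.1 on log2(deposited CPM + 1). Members, lists and rules were chosen with earlier results of these data known. Named miRNAs are all 10 arms, the 3 nearest in pattern to the most abundant arm, and the smallest p in each direction of each list; miR-199a-5p and the markers named for their counts were picked after their values were seen. Same-numbered libraries did not deviate together (correlation 0.0503 over 584 miRNAs) and were not paired. Sequences are from RefSeq, and positions were the same in GENCODE M21.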

Additional observations from a re-analysis of the deposited data

How the results depend on the processing

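Of the 8 tested arms, all kept direction and side of the threshold with RLE scaling and with DESeq2. Of the 8 tested arms, 1 passed; 0 did with no filter on low counts, with the replicate block or with the Ptf1a+/- pair summed, and 0 to 6 did with 1 library left out. Of the precursor sums, 1 passed, beside 9.66% of 580 rows, and its call was lost under the same settings. Of all miRNAs, 1.67% passed with no filter and 2.05% with the replicate block. With a lone Ptf1a-/- library the fit assumes that it varies like the Ptf1a+/- pair. That is why calls are many there, among all miRNAs as among these arms. With the replicate block the log2 fold change of miR-296-3p stayed at -0.55, with an adjusted p of 0.122, and the summed miR-296 arms had one of 0.127.

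Of all miRNAs, 36 were higher and 21 lower (27 lower on the deposited CPM). These counts were 4 and 12 with library size only (25% of calls higher, against 63.2%), 12 and 9 with no filter, 5 and 7 with the replicate block, 0 and 1 with the pair summed, 1 higher on the deposited CPM (3.57% of calls), and 0 to 137 higher and 0 to 137 lower with 1 library left out. The 31 Dlk1-Dio3 calls became 5, 12, 5, 0 and 1 under these 5 settings and 0 to 57 with 1 library left out; the Sfmbt2 families gave 0 to 3 there.

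Signs turned for arms near 0. miR-298-3p went from 0.06 to -0.12 with library size only and -0.27 on the deposited CPM, miR-335-3p from 0.09 to -0.083 and -0.25, and the summed miR-335 arms from 0.04 to -0.11 and -0.30. miR-335-5p went from 0.00335 to -0.15 and -0.36, to -0.018 with the replicate block and to -0.026 with the pair summed. With 1 library left out miR-298-5p lay between -0.11 and 0.033, miR-298-3p between -0.29 and 0.30, miR-335-5p between -0.29 and 0.23, the summed miR-298 arms between -0.11 and 0.034 and the summed miR-335 arms between -0.089 and 0.18. With the median of all miRNAs taken off, miR-298-3p stood at 0.060, 0.056 and 0.066 and miR-335-3p at 0.094, 0.094 and 0.079 with TMM, library size and the deposited CPM, so their turns of sign are the shift of that median; for the other turns the cause was not tested. Depth limits miR-675 and the 3p arms of miR-298 and miR-483.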
